A study of Homo sapiens with 18 samples.

Results

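The comparison described here is that of MOLM-13 cells kept with IACS-9571 for 24 h against the same line kept with IACS-9571 for 4 h. Of 23621 gene rows, 10975 had at least 1 FPKM in at least 1 of these groups and were compared, with the 92 ERCC spike-in rows left out. FPKM are sequenced fragments divided by transcript length and by the library total, before any further scaling of the columns. The groups are IACS-9571 for 24 h, IACS-9571 for 4 h, dTRIM24 for 24 h, dTRIM24 for 4 h, the solvent DMSO for 24 h and DMSO for 4 h, each with 3 samples by the labels. The deposited table gives 1 mean per gene and group, so replicate error and read depth are unknown and nothing here could be tested. Differences are 24 h minus 4 h of log2(FPKM + 1), a scale that understates the change of low genes. A difference of 1 or more in size is called past 2-fold.

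MOLM-13 is 1 human acute monocytic leukaemia line that carries an MLL fusion and an activating FLT3 duplication. IACS-9571 is an inhibitor that occupies the acetyl-histone pocket, or bromodomain, of TRIM24 and of BRPF1. dTRIM24 is a degrader that joins a TRIM24 bromodomain ligand to a ligand of the VHL ubiquitin ligase. All 6 groups were grown in the same serum-containing medium. Titles and time points give 4 h or 24 h, and these were followed, although the treatment note reads 24 h for every sample. The sources used here give no dose, so the compounds are set side by side without a test.

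Many of the genes lowest at 24 h relative to 4 h belong to sterol and fatty acid synthesis. Cells make cholesterol from acetyl-CoA through mevalonate and squalene. The transcription factors SREBF2 and SREBF1 are held in the endoplasmic reticulum by SCAP and the INSIG proteins when membrane sterol is plentiful. When it is scarce they are cut by the proteases MBTPS1 and MBTPS2, enter the nucleus and switch on synthesis enzymes and INSIG1 itself. The factors often bind beside NF-Y, which recognises the letters CCAAT.

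The promoters below are shown because their genes had the lowest differences among the lipid genes past 2-fold that had an entry in the RefSeq table. Each covers 250 bases before to 50 bases after the gene start on build GRCh38.p14, which is not the authors' build, and reads 5′ to 3′ along the gene. HMGCS1 lies at chr5:43313363-43313662 (minus strand) and INSIG1 at chr7:155297628-155297927 (plus strand). MVK lies at chr12:109573544-109573843 (plus strand) and DHCR7 at chr11:71448344-71448643 (minus strand). Capitals mark CCAAT or its reverse complement ATTGG.
HMGCS1: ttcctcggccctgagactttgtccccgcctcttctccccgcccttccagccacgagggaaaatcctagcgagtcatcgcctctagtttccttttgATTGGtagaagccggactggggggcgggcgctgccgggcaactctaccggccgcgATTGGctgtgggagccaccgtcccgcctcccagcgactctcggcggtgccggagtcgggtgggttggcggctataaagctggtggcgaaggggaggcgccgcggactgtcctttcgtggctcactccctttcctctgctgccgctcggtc
INSIG1: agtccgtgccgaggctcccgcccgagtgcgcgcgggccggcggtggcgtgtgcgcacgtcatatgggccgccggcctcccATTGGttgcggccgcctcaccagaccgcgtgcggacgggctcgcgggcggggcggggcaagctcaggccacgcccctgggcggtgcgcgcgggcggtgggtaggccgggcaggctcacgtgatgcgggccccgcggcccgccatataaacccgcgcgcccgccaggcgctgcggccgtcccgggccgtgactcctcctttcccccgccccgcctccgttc
MVK: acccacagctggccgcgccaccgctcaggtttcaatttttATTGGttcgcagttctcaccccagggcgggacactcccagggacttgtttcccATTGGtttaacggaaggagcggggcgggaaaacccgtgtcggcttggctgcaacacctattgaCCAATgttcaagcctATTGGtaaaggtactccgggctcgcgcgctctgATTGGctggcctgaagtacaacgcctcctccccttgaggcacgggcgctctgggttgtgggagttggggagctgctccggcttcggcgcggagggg
DHCR7: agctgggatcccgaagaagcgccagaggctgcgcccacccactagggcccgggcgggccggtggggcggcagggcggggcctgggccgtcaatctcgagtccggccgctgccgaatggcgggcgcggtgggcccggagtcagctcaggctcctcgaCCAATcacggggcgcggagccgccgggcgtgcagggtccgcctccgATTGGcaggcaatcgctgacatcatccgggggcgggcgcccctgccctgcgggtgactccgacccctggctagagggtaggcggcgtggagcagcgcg
HMGCS1 holds 2 such matches, INSIG1 holds 1, MVK holds 5 and DHCR7 holds 2. Of the 22 sterol, SREBP and fatty acid genes past 2-fold lower, 15 matched the table, and 13 of these 15 (86.7%) hold CCAAT on either strand. CYP51A1 and FADS1 were the 2 without it. The motif stood in 43.8% of 8662 kept genes with an entry and in 34.6% of all 35116 promoters. A gene counted if any of its windows matched, while the share of all promoters counts single windows. At least 2 matches in 1 window were found for 9 of the 15 (60.0%), beside 16.9% of the kept genes. A form of the sterol regulatory element, the letters TCACNCCAC, was searched on either strand. It was in the windows of 0 of the 15 genes, beside 1.41% of the kept genes and 1.13% of all promoters. A match is a run of letters and not a measured binding site, and the absence of one says only that these letters are not in this window.

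TRIM24 mRNA, the transcript of the protein that IACS-9571 binds, had 14.02 FPKM at 24 h and 17.6 FPKM at 4 h with IACS-9571. With dTRIM24 it had 17.2 FPKM at 24 h and 17.3 FPKM at 4 h, and with DMSO 13.97 FPKM at 24 h and 14.6 FPKM at 4 h. Its difference with IACS-9571 was -0.31, close to that of the typical gene. A bromodomain ligand acts on the protein, so these levels check no label. Of 11 kept genes of the TRIM24 family and the BRPF1 acetyltransferase complexes, 0 were past 2-fold, with a median of -0.30. TRIM28, a corepressor and TRIM24 relative, had 113 FPKM at 24 h and 152 FPKM at 4 h (-0.42), and BRPF1 had 6.08 FPKM at 24 h and 7.93 FPKM at 4 h (-0.34).

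Nearly every gene lay lower at 24 h than at 4 h with IACS-9571. The median of all 10975 genes was -0.26, with the 5th percentile at -0.52 and the 95th at -0.03, and 96.5% were below 0. DMSO gave a median of -0.22 and dTRIM24 a median of 0.05. Spike-ins at 5 FPKM or more in all 6 columns numbered 25. On log2(FPKM + 1) they had a median of 0.02 and an SD of 0.17 with IACS-9571, ranging from -0.18 to 0.71. The same spike-ins had a median of -0.006 with DMSO and -0.01 with dTRIM24, so each time comparison lay near level on them. Column totals were 771830 FPKM at 24 h and 987863 FPKM at 4 h with IACS-9571. In every column about 6060 rows shared 1 low value near 0.1 FPKM. Cell numbers were equalised and spike-ins added, per the labels' protocols. How much of the shift is RNA per cell was not tested. Values relative to the all-gene median are therefore given beside those as deposited.

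As deposited, 55 genes were past 2-fold higher (0.501% of those compared) and 102 lower (0.929%). Relative to the all-gene median the counts were 61 higher (0.556%) and 83 lower (0.756%). Of the 55 higher genes 54 are small RNAs by name, and the other is CA2. The 102 lower genes comprise 54 small RNAs, 11 histone and other RNAs that lack a poly(A) tail, 22 genes of the sterol, SREBP and fatty acid lists, and 15 others. Without small and tailless RNAs, 1 gene was higher (0.00927% of 10783) and 37 lower (0.343%), and relative to the median 2 were higher (0.0185%) and 23 lower (0.213%). The same classes left out, DMSO had 7 higher (0.0652% of 10730) and 6 lower (0.0559%). The genes nearest the bound with at least 5 FPKM were HIST1H4K, just past 2-fold lower at -1.005, and NSDHL, just short of it at -0.999. At the 1 FPKM floor, LOC285972 was just kept with 1.0006 FPKM in its higher column and PHLDB1 just left out with 0.9996 FPKM.

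**Figure D1:**
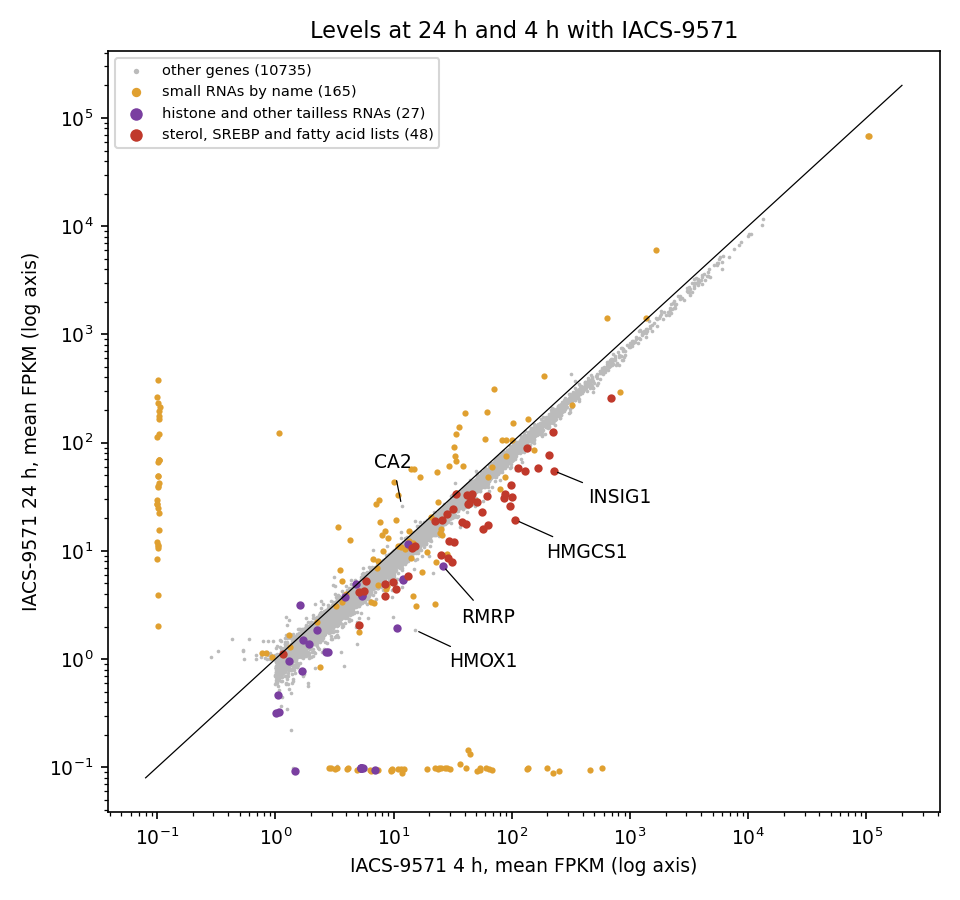
Mean FPKM of each of the 10975 genes with IACS-9571 at 4 h (x axis, log) and at 24 h (y axis, log), with the line of equal values. Most genes lie just below the line, the 48 lipid genes reach further below it, CA2 lies above it, and small RNAs form stripes near 0.1 FPKM on both axes.

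Sterol synthesis enzymes were the list with the lowest median among protein-coding genes. Of 20 kept enzymes, 15 were past 2-fold lower at 24 h, 12 relative to the all-gene median, and all 20 lay below that median. The shares over all kept genes were 0.929% lower as deposited and 0.756% relative to the median. The list median was -1.40 as deposited and -1.14 relative to all genes. In DMSO the same enzymes had a median of -0.36 and 0 were past 2-fold lower (background 0.384%). In dTRIM24 they had a median of -0.78 and 7 were past 2-fold lower (background 1.36%).

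At the head of the pathway, HMGCS1, the synthase that makes HMG-CoA, had 19.3 FPKM at 24 h and 108 FPKM at 4 h with IACS-9571, a difference of -2.42. With dTRIM24 HMGCS1 had 22.4 FPKM at 24 h and 81.1 FPKM at 4 h, and with DMSO 18.7 FPKM at 24 h and 20.7 FPKM at 4 h. The 4 h values of both compounds stood apart, while the 3 values at 24 h lay together with that of DMSO at 4 h. ACAT2, the thiolase before HMGCS1, had 54.9 FPKM at 24 h and 129.8 FPKM at 4 h (-1.23), against 57.8 FPKM at 24 h and 71.5 FPKM at 4 h in DMSO.

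The mevalonate steps were past 2-fold lower apart from PMVK and FDPS. MVK, the mevalonate kinase, had 7.94 FPKM at 24 h and 31.4 FPKM at 4 h with IACS-9571 (-1.86), 10.98 FPKM at 24 h and 23.2 FPKM at 4 h with dTRIM24, and 7.04 FPKM at 24 h and 10.7 FPKM at 4 h with DMSO. MVD, the decarboxylase, had 8.53 FPKM at 24 h and 29.03 FPKM at 4 h (-1.66), and its difference in DMSO was -0.70. IDI1, the isopentenyl diphosphate isomerase, had 58.1 FPKM at 24 h and 167 FPKM at 4 h (-1.50). FDPS, which joins the isoprene units, had 125 FPKM at 24 h and 224 FPKM at 4 h (-0.84), short of 2-fold. PMVK, the phosphomevalonate kinase between MVK and MVD, was nearer the typical gene at 32.8 FPKM at 24 h and 41.5 FPKM at 4 h (-0.33), near its DMSO values of 31.4 FPKM at 24 h and 41.5 FPKM at 4 h.

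From squalene onward most enzymes were past the bound. FDFT1, the squalene synthase, had 76.2 FPKM at 24 h and 208 FPKM at 4 h (-1.44). SQLE, the squalene epoxidase, had 26.2 FPKM at 24 h and 97.0 FPKM at 4 h (-1.85), against 21.3 FPKM at 24 h and 25.2 FPKM at 4 h in DMSO. LSS, the cyclase that forms lanosterol, had 9.17 FPKM at 24 h and 25.1 FPKM at 4 h (-1.36). CYP51A1 and MSMO1, which take methyl groups off lanosterol, differed by -1.64 and -1.76. MSMO1 had 16.1 FPKM at 24 h and 56.7 FPKM at 4 h with IACS-9571, while its DMSO values of 16.4 FPKM at 24 h and 16.7 FPKM at 4 h were nearly equal.

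The last steps were more varied. DHCR7, the 7-dehydrocholesterol reductase, had 17.3 FPKM at 24 h and 62.7 FPKM at 4 h (-1.80). HSD17B7 (-1.19) and SC5DL (-1.06), a sterol ketone reductase and the sterol C5 desaturase, were past the bound as deposited but not relative to the all-gene median. NSDHL (-0.999), TM7SF2 (-0.98) and EBP (-0.93), which act between lanosterol and the final products, lay just short of 2-fold. ACAT2, like HSD17B7 and SC5DL, was within the bound relative to the median, at -0.97.

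**Figure D2:**
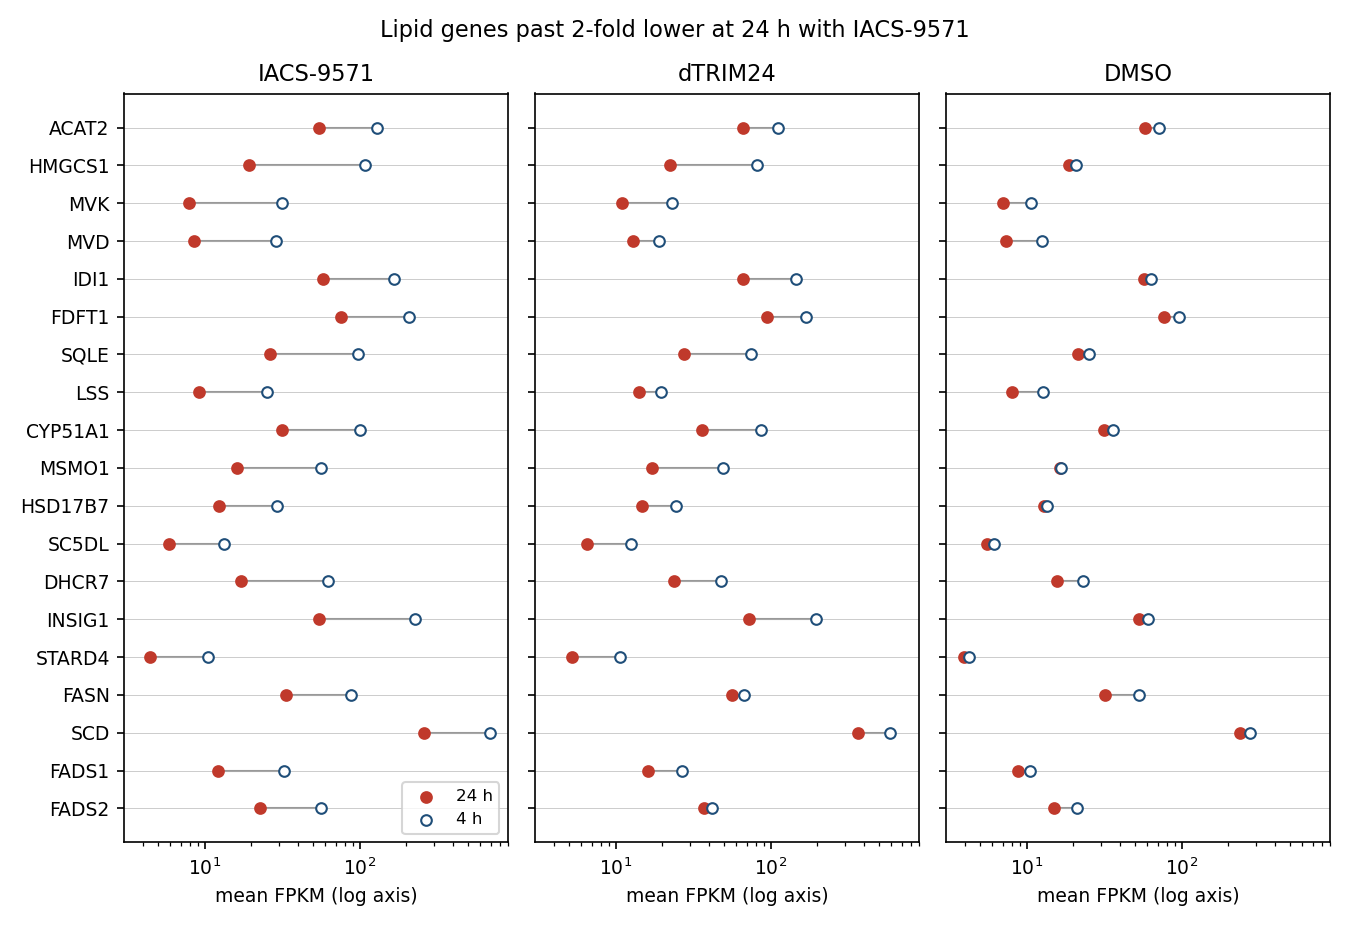
Mean FPKM (x axis, log) at 24 h (filled) and 4 h (open) of 19 sterol, SREBP and fatty acid genes past 2-fold lower with IACS-9571, in IACS-9571, dTRIM24 and DMSO. HMGCS1 spans 19.3 FPKM at 24 h to 108 FPKM at 4 h with IACS-9571 and 18.7 FPKM at 24 h to 20.7 FPKM at 4 h in DMSO, and the 24 h points of the IACS-9571 and DMSO panels lie close together.

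Among genes of SREBP control and sterol uptake, 3 of 12 kept members were past 2-fold lower, beside 0.929% of all kept genes. The list median was -0.51. INSIG1, which retains the SREBP escort SCAP in the endoplasmic reticulum, had 55.0 FPKM at 24 h and 226 FPKM at 4 h with IACS-9571 (-2.02). INSIG1 had 72.1 FPKM at 24 h and 196 FPKM at 4 h with dTRIM24, and 53.03 FPKM at 24 h and 60.9 FPKM at 4 h with DMSO. STARD4, a cytosolic sterol carrier, had 4.43 FPKM at 24 h and 10.5 FPKM at 4 h (-1.08). Relative to the all-gene median INSIG1 was past 2-fold and STARD4 was not.

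The factors and their processing machinery differed less than these target genes. SREBF2, the sterol-directed factor, had 28.5 FPKM at 24 h and 51.3 FPKM at 4 h (-0.83), against 27.6 FPKM at 24 h and 39.1 FPKM at 4 h in DMSO. SREBF1, directed more to fatty acid genes, had 19.2 FPKM at 24 h and 25.9 FPKM at 4 h (-0.41), and its difference in DMSO was -0.61. SCAP, INSIG2, MBTPS1 and MBTPS2 differed by -0.39, -0.33, -0.24 and -0.12. NPC1, which exports cholesterol from lysosomes, differed by -0.68, its partner NPC2 by -0.36 and TMEM97 by -0.62.

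Among fatty acid genes, 4 of 16 kept members were past 2-fold lower, beside 0.929% of all kept genes. These 4 also were relative to the all-gene median, beside 0.756% of all kept genes. The list median was -0.61, beside -0.23 in DMSO and -0.21 in dTRIM24. SCD, the stearoyl-CoA desaturase, had 259 FPKM at 24 h and 696 FPKM at 4 h with IACS-9571 (-1.42), 367 FPKM at 24 h and 590 FPKM at 4 h with dTRIM24, and 236 FPKM at 24 h and 276 FPKM at 4 h with DMSO. FASN, the fatty acid synthase, had 33.5 FPKM at 24 h and 87.3 FPKM at 4 h (-1.36), and in DMSO 31.8 FPKM at 24 h and 52.8 FPKM at 4 h. FADS1 and FADS2, the desaturases of polyunsaturated fatty acids, had 12.1 and 22.9 FPKM at 24 h, and 32.4 and 56.6 FPKM at 4 h. Their differences were -1.34 and -1.27.

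Other members of the fatty acid list were short of 2-fold. LPIN1, a phosphatidate phosphatase, differed by -0.97, ACLY, which makes cytosolic acetyl-CoA, by -0.92, and ACSS2, which makes it from acetate, by -0.83. ACSL4, an acyl-CoA synthetase, differed by -0.64, the elongases ELOVL1 and ELOVL5 by -0.57 each, and ACACA, the acetyl-CoA carboxylase, by -0.43. ACSL1, another acyl-CoA synthetase, had 33.3 FPKM at 24 h and 33.6 FPKM at 4 h (-0.01) and stood apart from the list.

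Over the 48 kept genes of these 3 lists, the 24 h level with IACS-9571 was close to that of DMSO at 24 h. The difference of those columns had a median of 0.04 and ran from -0.15 for ELOVL1 to 0.57 for FADS2. FADS2 had 22.9 FPKM with IACS-9571 and 15.1 FPKM with DMSO at 24 h, and FADS1 had 12.1 FPKM with IACS-9571 and 8.84 FPKM with DMSO at 24 h. The other side of the comparison, the 4 h level, stood above DMSO at 4 h by a median of 1.08 over the sterol enzymes, 0.33 over the SREBP list and 0.36 over the fatty acid list. These values share columns with the time difference and add no separate support to it.

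For the time differences themselves, IACS-9571 and DMSO share no column. The IACS-9571 difference less that of DMSO was past 2-fold higher for 63 of 11081 genes (0.569%) and lower for 141 (1.27%). Without small and tailless RNAs these counts were 6 (0.0554%) and 26 (0.24%) of 10839. Of the 20 sterol enzymes 10 were past 2-fold lower on this measure, of the SREBP list 1 (INSIG1, -1.83) and of the fatty acid list 2 (SCD, -1.198, and FADS1, -1.11). The largest in size among these enzymes was HMGCS1 at -2.28, followed by MSMO1 at -1.73 and SQLE at -1.61. PMVK (0.06) was the 1 sterol enzyme whose IACS-9571 difference was not below that of DMSO.

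Across 10783 genes without small and tailless RNAs, the differences with IACS-9571 and with DMSO had a Pearson r of 0.54 and a Spearman rho of 0.60. With dTRIM24 the values were 0.09 and -0.08. Genes are not independent replicates and share libraries and base composition, so these are descriptions. The differences ran with transcript GC content over 10712 genes with a value (97.6%), with a Spearman rho of -0.45 in IACS-9571, 0.59 in dTRIM24 and -0.73 in DMSO. In 10 GC bins the median with IACS-9571 ran from -0.19 in the lowest to -0.39 in the highest bin. The part of GC content in the list values was not tested.

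**Figure D3:**
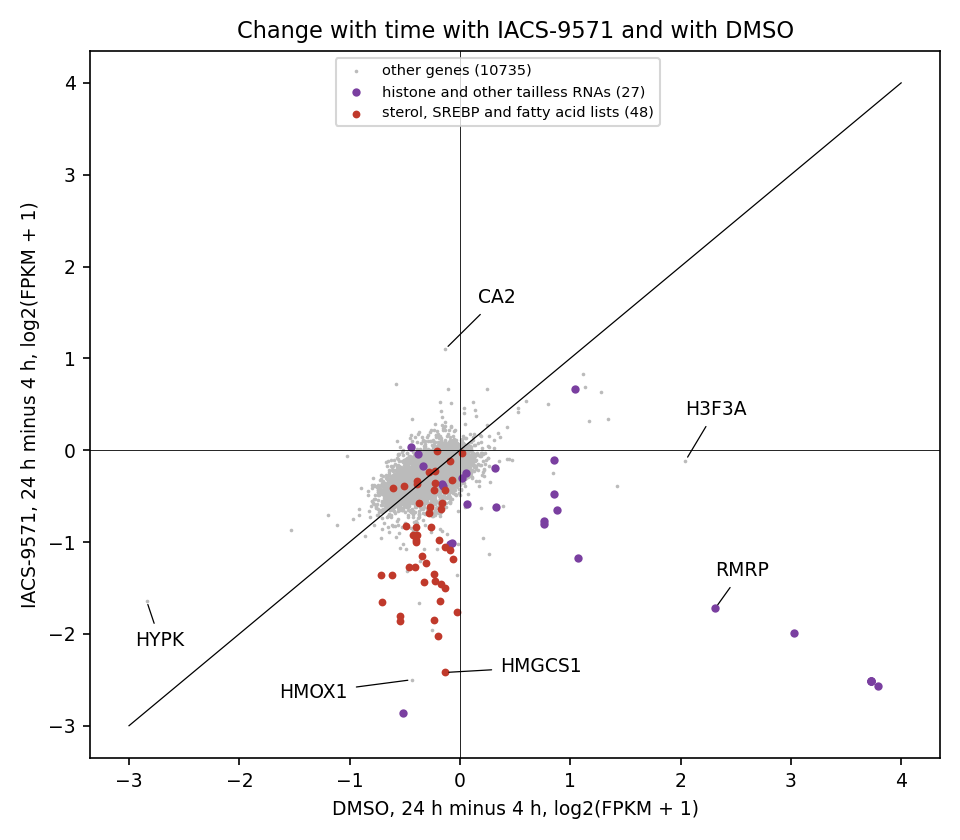
Difference between 24 h and 4 h of log2(FPKM + 1) in DMSO (x axis) and with IACS-9571 (y axis) for 10810 genes without small RNAs, with the line of equal differences. Lipid genes run down at DMSO values near 0 (HMGCS1 at -2.42 on the y axis), while RMRP and other tailless RNAs lie low at the right and CA2 lies above the cloud.

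HMOX1, the stress-induced haem oxygenase, had the lowest difference of the genes outside the lipid lists and the tailless and small RNA classes. It had 1.86 FPKM at 24 h and 15.2 FPKM at 4 h with IACS-9571, a difference of -2.50. With dTRIM24 HMOX1 had 2.37 FPKM at 24 h and 1.74 FPKM at 4 h (0.30), and with DMSO 1.42 FPKM at 24 h and 2.27 FPKM at 4 h (-0.43). The IACS-9571 value at 4 h was the 1 high value of 6. The other 17 kept genes of the NRF2 and oxidative stress list were within 2-fold, and the list median was -0.47, with 15 of 18 below the all-gene median.

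Within that list PGD, of the pentose phosphate pathway, had 119 FPKM at 24 h and 193 FPKM at 4 h (-0.69). FTH1, the ferritin heavy chain, had 321 FPKM at 24 h and 492 FPKM at 4 h (-0.61), against 309 FPKM at 24 h and 371 FPKM at 4 h in DMSO. GCLM, a subunit of the glutathione-forming ligase, had 14.1 FPKM at 24 h and 21.3 FPKM at 4 h (-0.57). NQO1, a quinone reductase and a common NRF2 marker, chosen after its values were seen, had 32.3 FPKM at 24 h and 35.8 FPKM at 4 h (-0.15), above the all-gene median.

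CA2, a cytosolic carbonic anhydrase, was the 1 gene past 2-fold higher outside the small RNAs. It had 26.2 FPKM at 24 h and 11.7 FPKM at 4 h with IACS-9571 (1.099). CA2 had 18.0 FPKM at 24 h and 11.4 FPKM at 4 h with dTRIM24 (0.62), and 8.83 FPKM at 24 h and 9.79 FPKM at 4 h with DMSO (-0.13). The 2 compounds at 24 h held the highest of the 6 values, and the other 4 lay between 8.83 and 11.7 FPKM. Of 8097 genes with at least 5 FPKM outside the small RNAs, 80 lay above 0 at all.

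The remaining 14 lower genes, most of them named after their values were seen, were mixed in kind. PPARD, a nuclear receptor for fatty acids, had 4.60 FPKM at 24 h and 11.9 FPKM at 4 h (-1.203), against 4.38 FPKM at 24 h and 5.91 FPKM at 4 h in DMSO. C14orf1, whose yeast counterpart tethers sterol enzymes, had 16.7 FPKM at 24 h and 36.4 FPKM at 4 h (-1.08). SLC29A2, a nucleoside transporter, had 6.81 FPKM at 24 h and 14.9 FPKM at 4 h (-1.03), and its difference in DMSO was -0.51. C6orf223 had 2.47 FPKM at 24 h and 10.00 FPKM at 4 h (-1.66), and SLCO4C1, an organic anion transporter, 0.870 FPKM at 24 h and 3.81 FPKM at 4 h (-1.36). RASD1, RAB33A, SPATC1L and NEUROG3 differed by -1.32, -1.08, -1.08 and -1.07. In DMSO they differed by -0.48, -0.21, -0.49 and -0.55. HSD17B7P2 (-1.02) is a pseudogene copy of HSD17B7 and is uncertain. Relative to the all-gene median, PPARD, C14orf1, SLC29A2, RAB33A, SPATC1L, NEUROG3 and HSD17B7P2 were within 2-fold.

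The other 4 overlap another gene, so reads could be divided between gene models, and they are uncertain. HYPK had 6.29 FPKM at 24 h and 21.7 FPKM at 4 h (-1.64), while SERF2-C15ORF63, a read-through gene over the same locus, had 42.1 FPKM at 24 h and 33.1 FPKM at 4 h. In DMSO HYPK was lower too, with 4.49 FPKM at 24 h and 38.3 FPKM at 4 h. It was the 1 gene of the 42 lower ones with at least 5 FPKM that was also past 2-fold lower in DMSO, and its IACS-9571 difference less that of DMSO was 1.205. BLOC1S5 had 3.71 FPKM at 24 h and 9.74 FPKM at 4 h, and the overlapping EEF1E1-MUTED 10.1 FPKM at 24 h and 6.74 FPKM at 4 h. The read-through genes RPL17-C18orf32 and FKBP1A-SDCBP2 were near 0.1 FPKM at 24 h and had 3.30 and 1.404 FPKM at 4 h. BLOC1S5 and FKBP1A-SDCBP2 were within 2-fold relative to the all-gene median.

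RNAs that lack a poly(A) tail made up a further group of lower values, and they varied in every treatment. RMRP, the RNA component of the RNase MRP complex, had 7.25 FPKM at 24 h and 26.2 FPKM at 4 h with IACS-9571 (-1.72). RMRP had 20.2 FPKM at 24 h and 1196 FPKM at 4 h with dTRIM24, and 67.1 FPKM at 24 h and 12.7 FPKM at 4 h with DMSO. RPPH1, the RNA of RNase P, had 1.95 FPKM at 24 h and 10.7 FPKM at 4 h with IACS-9571 (-1.99). RPPH1 had 8.57 FPKM at 24 h and 493 FPKM at 4 h with dTRIM24, and 23.5 FPKM at 24 h and 2.01 FPKM at 4 h with DMSO. For both RNAs the 24 h value was the lower one with either compound and the higher one in DMSO.

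Of 9 kept members of that list, 8 were past 2-fold lower, beside 0.929% of all kept genes. The SNAR members among them passed the 1 FPKM floor only through the 4 h column, which fixed their direction. The count is therefore no result about separate members. No list median is given, since it is the value of near-identical copies of SNAR-A. SNAR-A6 had 0.0976 FPKM at 24 h and 5.51 FPKM at 4 h with IACS-9571. The near-identical copies SNAR-A1, SNAR-A13, SNAR-A12 and SNAR-A2 share 1 value and had 0.0975 FPKM at 24 h and 5.27 FPKM at 4 h. SNAR-B1 had 0.0950 FPKM at 24 h and 6.98 FPKM at 4 h. Values near 0.1 FPKM are the low value shared by the rows described above, so no difference is given for these RNAs, and the division of reads among copies is uncertain. BCYRN1, a neuronal small cytoplasmic RNA, was the 1 member higher, at 3.15 FPKM at 24 h and 1.61 FPKM at 4 h (0.67). The part of RNA selection or library preparation in these values was not tested.

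**Figure D4:**
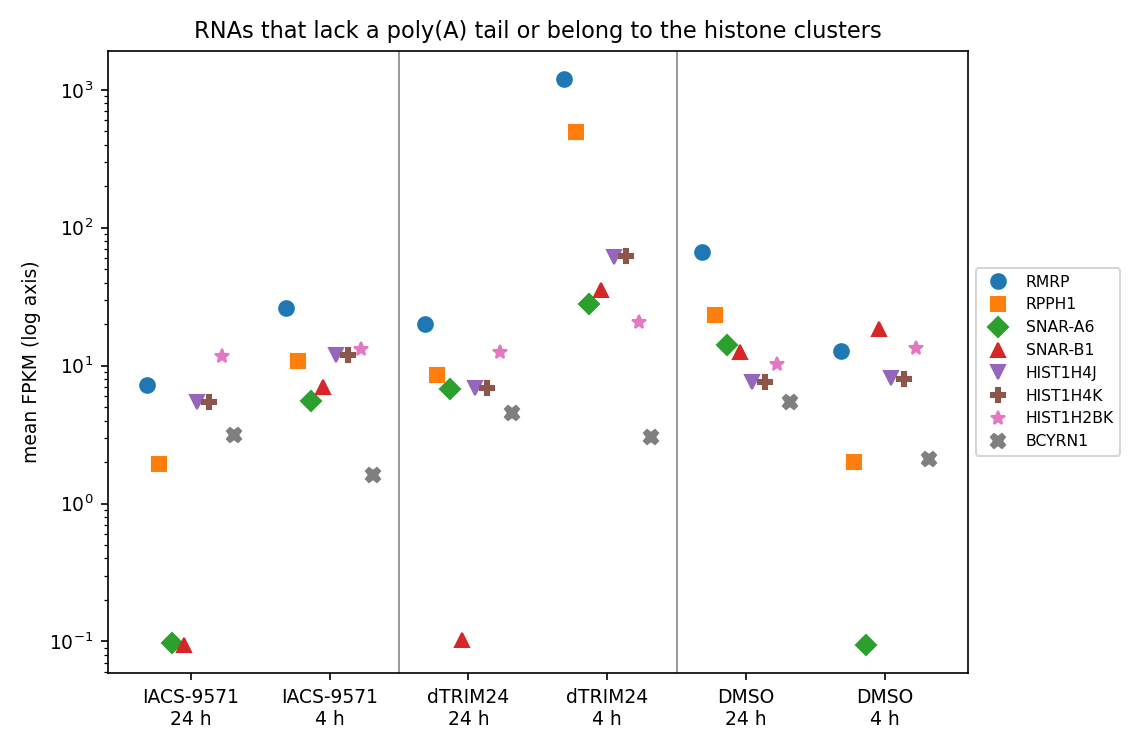
Mean FPKM (y axis, log) of 8 tailless or histone cluster RNAs in the 6 groups, 24 h left of 4 h within each treatment. RMRP runs from 7.25 FPKM with IACS-9571 at 24 h to 1196 FPKM with dTRIM24 at 4 h, while HIST1H2BK stays between 10.4 and 20.6 FPKM.

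Replication-dependent histone mRNAs carry a stem-loop at their 3′ end. Of 72 genes of this list 18 were above the floor, and 3 of these were past 2-fold lower, beside 0.929% of all kept genes. HIST1H4J had 5.41 FPKM at 24 h and 11.96 FPKM at 4 h (-1.02) and HIST1H4K 5.48 FPKM at 24 h and 12.002 FPKM at 4 h (-1.01). HIST1H4E had 0.0916 FPKM at 24 h, the low end of the table, and 1.47 FPKM at 4 h. It passed the 1 FPKM floor only through the 4 h column, which fixed its direction. The list median was -0.44, beside -2.99 in dTRIM24 and 0.06 in DMSO, and relative to all genes 0 members were past 2-fold. Near-identical copies make single values of H4 genes uncertain, and HIST1H4J and HIST1H4K had nearly the same value in every column. The count past 2-fold is therefore no result about separate members. H3F3A, a replication-independent histone H3 gene with processed copies, had 78.7 FPKM at 24 h and 85.3 FPKM at 4 h with IACS-9571. H3F3A had 163 FPKM at 24 h and 51.4 FPKM at 4 h with dTRIM24, and 115 FPKM at 24 h and 27.2 FPKM at 4 h with DMSO.

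Small RNAs by name lay both ways. Of 165 kept of 1722, 54 were higher and 54 lower, beside 0.501% and 0.929% of all kept genes. Their median was -0.01 and their range from -9.05 to 8.43. Small RNAs are themselves 54 of the 55 genes behind the higher share. Of these 108, 76 were under 0.2 FPKM in their lower column. These 76 passed the 1 FPKM floor only through their higher column, which fixed their direction. The counts each way, also those by class below, are therefore no result about separate members. SNORD45C, a C/D box guide of RNA methylation, stood at 379 FPKM at 24 h and 0.101 FPKM at 4 h, and MIR3607 at 0.0990 FPKM at 24 h and 583 FPKM at 4 h. These 2 were chosen as the ends of the range. C/D box RNAs had 24 higher and 12 lower of 45, H/ACA box RNAs 15 and 22 of 67, Cajal body RNAs 0 and 3 of 7, and RNAs with names in MIR 14 and 15 of 41. Classing by name also takes in the long host genes MIR155HG and MIR17HG and the protein-coding gene TRNAU1AP, which were within 2-fold. In DMSO the same 165 had 53 higher (background 0.805%) and 26 lower (background 0.384%). These backgrounds are over genes kept on the DMSO columns, while the 165 were kept on the IACS-9571 columns. The reads behind these values are unknown.

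Among the remaining lists few values left the general shift. Of 45 lists with at least 5 kept members, 38 had 0 members past 2-fold either way. MYC and ribosome biogenesis genes lay at the upper side, with 24 of 33 at or above the all-gene median and a list median of -0.18, against -0.26 in DMSO. MYC itself had 207 FPKM at 24 h and 217 FPKM at 4 h (-0.06), against 168 FPKM at 24 h and 211 FPKM at 4 h in DMSO. NOP58, a core protein of C/D box particles, had 127 FPKM at 24 h and 129 FPKM at 4 h (-0.03), and GNL3, a nucleolar GTPase, 116 FPKM at 24 h and 121 FPKM at 4 h (-0.06).

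At the lower side, granule protein genes had a median of -0.52 with 12 of 13 below the all-gene median, and in DMSO their median was -0.51. PRTN3, a granule protease, had 192 FPKM at 24 h and 314 FPKM at 4 h with IACS-9571 (-0.71), and 255 FPKM at 24 h and 430.4 FPKM at 4 h with DMSO (-0.75). MPO, the myeloperoxidase, had 3.55 FPKM at 24 h and 7.15 FPKM at 4 h (-0.84). Cell cycle inhibitors and G1 regulators had a median of -0.50, against -0.23 in DMSO, with 11 of 13 below their DMSO difference. Over all 11081 genes compared with DMSO, 57.2% lay below their DMSO difference, and counts of this kind are to be read against that share. CDKN2D and CDKN1A, inhibitors of cyclin-dependent kinases, differed by -0.71 and -0.58, and CCND1 had 1.39 FPKM at both times.

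Proliferation lists had medians near the general shift, while most of their members lay below their DMSO difference. DNA replication genes had a median of -0.37 (DMSO -0.24), and 30 of 38 lay below their DMSO difference, beside 57.2% of all genes. CDT1, a licensing factor, had 24.4 FPKM at 24 h and 38.9 FPKM at 4 h (-0.65). In DMSO CDT1 was lower by nearly as much, with 25.6 FPKM at 24 h and 40.3 FPKM at 4 h (-0.63). Mitosis genes had a median of -0.33 (DMSO -0.16), and 32 of 35 lay below their DMSO difference, beside 57.2% of all genes. MKI67, a proliferation marker, had 20.8 FPKM at 24 h and 28.5 FPKM at 4 h (-0.44), and in DMSO 19.1 FPKM at 24 h and 21.2 FPKM at 4 h (-0.15). The HOXA genes with MEIS1 and PBX3, drivers in MLL-rearranged leukaemia, had a median of -0.36, and all 9 lay below their DMSO difference, beside 57.2% of all genes. HOXA9 had 25.4 FPKM at 24 h and 33.9 FPKM at 4 h (-0.40), against 25.9 FPKM at 24 h and 30.1 FPKM at 4 h in DMSO.

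Stress lists were also within 2-fold. ATF4 and amino acid stress genes had a median of -0.43 (DMSO -0.32). TRIB3, a pseudokinase, had 13.7 FPKM at 24 h and 24.1 FPKM at 4 h (-0.78), and in DMSO 15.2 FPKM at 24 h and 23.2 FPKM at 4 h (-0.57). The unfolded protein response list had a median of -0.31 (DMSO -0.18). EDEM1, of endoplasmic reticulum degradation, had 20.8 FPKM at 24 h and 34.8 FPKM at 4 h (-0.72), and its difference in DMSO was -0.18. Heat shock genes had a median of -0.35 (DMSO -0.25). In the immediate early list JUND, an AP-1 factor, had 66.8 FPKM at 24 h and 123 FPKM at 4 h (-0.87), against 82.8 FPKM at 24 h and 110 FPKM at 4 h in DMSO (-0.40). TYROBP, a myeloid signalling adaptor, had 22.7 FPKM at 24 h and 41.8 FPKM at 4 h (-0.85), and its difference in DMSO was -0.45. SNHG9, a host gene of small nucleolar RNA, had 28.9 FPKM at 24 h and 57.2 FPKM at 4 h (-0.96), while in DMSO it had 48.1 FPKM at 24 h and 41.5 FPKM at 4 h (0.21).

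A few list members stood above 0. MYLIP, a ubiquitin ligase induced by LXR, had 11.0 FPKM at 24 h and 8.82 FPKM at 4 h with IACS-9571 (0.29), and 9.72 FPKM at 24 h and 11.6 FPKM at 4 h with DMSO (-0.23). Its list, LXR and sterol efflux, had 6 kept members and a median of -0.24. CD38, a surface enzyme known to respond to retinoic acid, had 6.96 FPKM at 24 h and 5.55 FPKM at 4 h (0.28). The list of retinoic acid receptors and targets had 5 of 7 kept members below 0 and a median of -0.24. NDRG1, a hypoxia-responsive gene, had 8.15 FPKM at 24 h and 6.97 FPKM at 4 h (0.20). Its list, HIF targets, had 15 of 17 kept members below 0 and a median of -0.27. RPL21 had 427 FPKM at 24 h and 317 FPKM at 4 h (0.43), against a median of -0.30 over 85 ribosomal protein genes, and is uncertain because of its many processed copies.

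**Figure D5:**
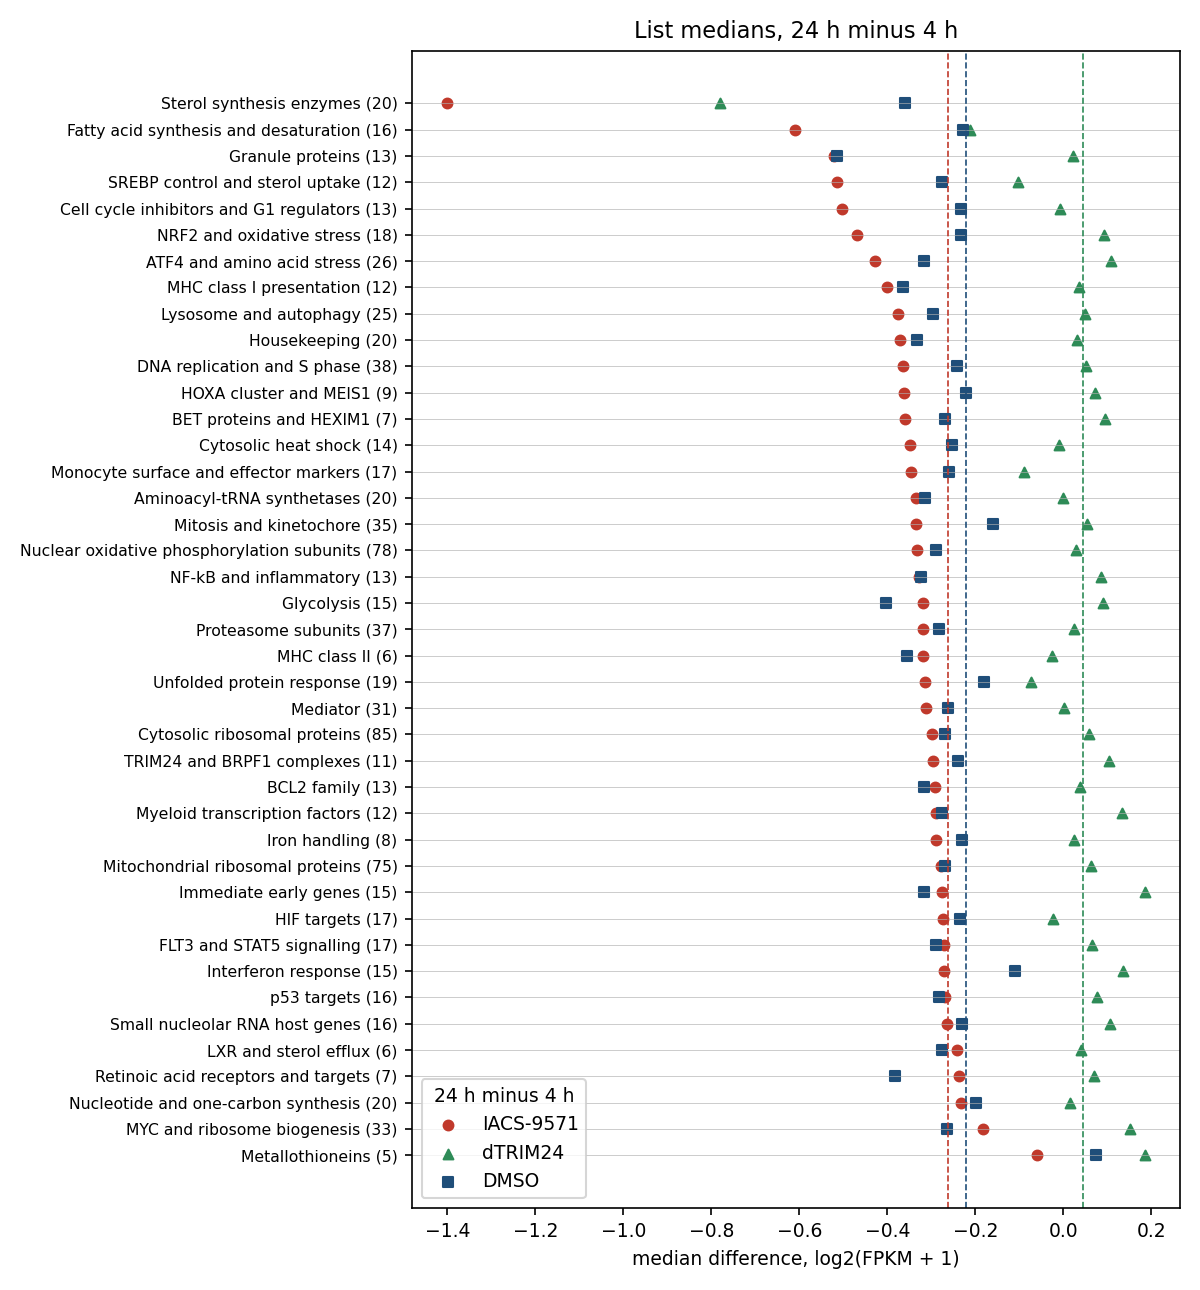
Median difference between 24 h and 4 h of log2(FPKM + 1) (x axis) of each list with at least 5 kept members, number kept in brackets, with IACS-9571, dTRIM24 and DMSO; identity, histone, tailless and small RNA lists are left out. Dashed lines are the all-gene medians of -0.26, 0.05 and -0.22, and the sterol enzymes stand apart at -1.40 with IACS-9571.

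The labelled cell line was checked against markers. Of 11 genes of the MOLM-13 and myeloid state, 10 were above the floor, among them FLT3, a receptor kinase, at 79.8 FPKM at 24 h and 104 FPKM at 4 h, and CD33, a myeloid surface protein, at 25.6 FPKM at 24 h and 28.0 FPKM at 4 h. KIT was below it. T cell and erythroid markers had 0 of 8 and 0 of 6 members above the floor. Of 6 B cell markers PAX5 passed, and of 10 fibroblast and epithelial markers KRT8 and KRT18 passed. PAX5 had 4.24 FPKM at 24 h and 5.05 FPKM at 4 h with IACS-9571.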

How the data were processed

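RNA of 18 MOLM-13 samples in 6 groups of 3 was sequenced. The deposited table holds FPKM that the authors averaged to 1 mean per group. Per the submitters' processing notes, TopHat2, Cuffnorm and the hg19 build were used. Cell numbers were equalised and ERCC spike-ins added, per the labels' protocols. The sources used here name no tool version, annotation or strand setting. Nothing in the labels says that a group's samples came from separate cultures.

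Spike-ins were left out, genes with at least 1 FPKM in either column were kept, and group means were subtracted as log2(FPKM + 1). With 1 mean per group the planned limma fit was not made, and no p-value was computed. Small RNAs were classed by name (SNOR, SCARNA, MIR and the like), and tailless RNAs as HIST, RMRP, RPPH1, SNAR, TERC and BCYRN1. Named genes were TRIM24, up to 15 each way past 2-fold and up to 10 each way against DMSO (at least 5 FPKM, small RNAs out), up to 6 per list, all lipid list members past 2-fold, and those nearest the bounds. Other genes named were chosen after their values were seen. Some list members are counted but not reported here by name. Members and lists were chosen with earlier results of these data known. GC content came from GENCODE transcripts by symbol. Steps were tested on simulated data. Python 3.11.15, numpy 2.4.6, pandas 2.3.3 and scipy 1.17.1 were used.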

Additional observations from a re-analysis of the deposited data

How the results depend on the processing

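Pseudocounts of 0.1 and 0.5, no filter, a 5 FPKM floor, median centring, quantile normalization, spike-in rescaling, a 1.5-fold bound and leaving out small and tailless RNAs were tried. The all-gene median was -0.0525 with no filter, 0 by construction with centring and 0.0111 with quantile normalization. With a 1.5-fold bound 333 genes were lower. Without small and tailless RNAs 1 gene was higher and 37 lower, and against the DMSO difference 6 higher and 26 lower. Relative to all genes, the sterol list (-1.14) was at -1.35 and the fatty acid list (-0.35) at -0.52 with no filter, where the all-gene median itself moves. Of the other lists, 28 also moved relative to all genes with no filter. The tailless list (-2.25, the value of the SNAR-A copies against the low value of the table) was at 0.0523 with no filter, which adds its undetected members, at -4.48 and -2.997 with pseudocounts of 0.1 and 0.5, and at -2.45 with quantile normalization. Histones (-0.18) were at -0.45 with a pseudocount of 0.1. Of 283 values of single genes 271 kept their side of the bound, 12 were no longer past it and 0 turned round. Among the 12 were ACAT2, HSD17B7, SC5DL and STARD4 relative to the all-gene median and with quantile normalization, and FADS2 with quantile normalization. No paired analysis was possible because the table holds 1 mean per group, and leaving out replicates was not possible for the same reason. With no counts, what depth limits could not be measured.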
